A study of Mus musculus with 16 samples.

Results

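The genes described are 9 members of the norrin and Wnt signalling pathway of retinal vessels, chosen by name for their roles. Earlier results of these data were known at that choice. The members are Ndp, Fzd4, Lrp5, Tspan12, Lef1, Axin2, Apcdd1, Sox17 and Ctnnb1. All 9 were among the 43280 gene symbols counted in each library, and all 9 were among the 19905 genes that passed the filter on low counts. RNA of whole retina from wildtype C57BL/6J mice was counted in 16 libraries. In oxygen-induced retinopathy (OIR), mouse pups breathe oxygen-rich air, which prunes the growing retinal vessels, and back in room air the poorly supplied retina runs short of oxygen and grows disordered vessels. The OIR groups were kept in 75% oxygen from postnatal day 7 to day 12 and then in 21% oxygen, and the control groups stayed in 21% oxygen. Retinas were taken at postnatal day 14 (P14; 2 OIR and 2 control libraries), at day 17 (P17; 3 and 3) and at day 30 (P30; 3 and 3). The labels do not say whether a library holds 1 animal or several, nor that replicates are separate animals, so the p-values below measure only the spread between these libraries.

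Norrin, encoded by Ndp, is a secreted protein that is not a Wnt but activates the same pathway in retinal endothelial cells. In the mouse retina it is made mainly by Müller glia, binds the receptor Fzd4 with its co-receptor Lrp5, and is helped by the membrane protein Tspan12. The signal stabilises beta-catenin (Ctnnb1), which enters the nucleus, joins DNA-binding partners such as Lef1 and switches on target genes, among them the feedback inhibitors Axin2 and Apcdd1 and, in endothelial cells, the transcription factor Sox17. Loss of Ndp, Fzd4, Lrp5 or Tspan12 leaves the deeper vessel layers of the mouse retina unformed and the blood-retina barrier weak.

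Promoter windows were read from RefSeq (build GRCm38.p6) to see which members carry the letters that Lef1 and its relatives bind. The windows run from 250 bases before to 50 bases after a start, and 6 of the 9 members had an entry (Ndp, Fzd4, Tspan12, Lef1, Axin2 and Ctnnb1). Lef1 had 4 windows and Ctnnb1 had 2, and each of the other members with an entry had 1. The search covered both strands for the motif CTTTGAA, for the motif CTTTGAT, for the motif CTTTGTA and for the motif CTTTGTT, which share their first 5 letters. A match stood in the Ndp window at position -171 from the start and in the window of the fourth listed Lef1 start at position -147. These are shown because Ndp and Lef1 both changed with age in control retina, with the match in capitals. In the Lef1 window the motif reads on the opposite strand, so its letters are printed as the reverse complement. The Ndp window is the minus strand of chrX:16911725-16912024 and the Lef1 window is the plus strand of chr3:131156044-131156343.
Ndp: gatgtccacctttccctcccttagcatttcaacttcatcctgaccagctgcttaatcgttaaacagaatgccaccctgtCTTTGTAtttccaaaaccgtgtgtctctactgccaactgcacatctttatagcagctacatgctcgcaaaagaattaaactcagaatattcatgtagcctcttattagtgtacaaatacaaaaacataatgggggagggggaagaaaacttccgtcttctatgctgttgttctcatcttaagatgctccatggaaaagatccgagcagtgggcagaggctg
Lef1: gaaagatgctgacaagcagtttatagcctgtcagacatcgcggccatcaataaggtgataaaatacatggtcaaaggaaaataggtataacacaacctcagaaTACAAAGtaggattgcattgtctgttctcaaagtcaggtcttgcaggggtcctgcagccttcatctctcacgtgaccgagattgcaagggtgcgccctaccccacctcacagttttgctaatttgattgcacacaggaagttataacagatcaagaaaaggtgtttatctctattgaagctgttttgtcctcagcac
Of 32851 promoter windows of this length in the RefSeq table, 5544 (16.9%) held at least 1 of the 4 motifs, and a match here describes letters, not a bound site. This share is per window, and a gene with several windows has more places for a match, so the matches show no excess among the members.

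Between 26077663 and 41716971 reads were counted per library, and 24016 to 25420 genes had reads in a library. Rod photoreceptor markers, which define retina, summed to 40584 CPM (reads scaled to a common library size) or more in every library. Tissue beside the retina and the sex of the animals moved with the groups. The 18 genes of a lens list took 7.20%, 5.36% and 0.334% of counts in the OIR libraries at P17, against 0.0298%, 0.560% and 0.428% in the P17 controls, and 3.29% to 8.29% in every P30 library. At P14 they took 0.00102% and 0.000931% in OIR, against 0.157% and 0.00461% in controls. Xist, made from the inactive X of females, stood at 114 to 158 CPM in the 3 OIR libraries at P17, against at most 0.104 CPM in their controls, and Ddx3y, a Y-linked gene, had 0 or 1 read in those OIR libraries, against 25.8 to 33.2 CPM in the controls. At P17 the sex of the animals and OIR therefore cannot be told apart. A covariate for Y-linked reads, used in some fits below, cannot separate them at P17 either, whether a call held or was lost. One control library at P14 (replicate 2) and one OIR library at P30 (replicate 2) also had Xist at 913 and 105 CPM, with the others of their groups showing Y-linked reads.

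In the mm10 build with the GENCODE M21 annotation, Ndp lies on the minus strand of chromosome X at 16885521 to 16911774, and Fzd4 on the plus strand of chromosome 7 at 89404355 to 89413134. Lrp5 lies on the minus strand of chromosome 19 at 3584828 to 3686564, and Tspan12 on the minus strand of chromosome 6 at 21771395 to 21852515. Ctnnb1 lies on the plus strand of chromosome 9 at 120929216 to 120960507, Lef1 on the plus strand of chromosome 3 at 131110471 to 131224356, and Axin2 on the plus strand of chromosome 11 at 108920349 to 108950783. Apcdd1 lies on the plus strand of chromosome 18 at 62922231 to 62961179, and Sox17 on the minus strand of chromosome 1 at 4490931 to 4497354. All 9 are protein-coding. Genes on the opposite strand share 16.8% of the exon bases of Sox17 (Gm37587), 13.7% of those of Lef1 (Gm43352) and 14.6% of those of Ctnnb1 (Ulk4). Of these 3, Ulk4 is among the counted gene symbols, and Gm37587 and Gm43352 are not. The strand setting of the counting is not given in the sources used here, so whether reads of these stretches were kept apart is not known.

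The members differed widely in abundance. Divided by exon length, Ctnnb1 averaged 91.4 CPM per kilobase over the 16 libraries, 17.8 times the level of the next gene, Axin2, at 5.14. Ndp followed at 4.88, Apcdd1 at 4.21, Tspan12 at 3.34, Lrp5 at 2.83 and Fzd4 at 1.41 CPM per kilobase. The vessel-related transcription factors Sox17, at 0.498, and Lef1, at 0.286 CPM per kilobase, were lowest. The order was not fixed for neighbours in the middle: Axin2 stood above Ndp in 10 of 16 libraries, Ndp above Apcdd1 in 12 and Tspan12 above Lrp5 in 10, while Ctnnb1 stood above Axin2, Lrp5 above Fzd4 and Fzd4 above Sox17 in all 16. The rarest members varied most between groups: the highest group mean was 3.24 times the lowest for Sox17 and 2.42 times for Lef1, against 1.28 times for Fzd4 and 1.14 times for Ctnnb1. The levels below are CPM scaled by TMM (an adjustment for the composition of each library), not divided by length.

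**Figure D1:**
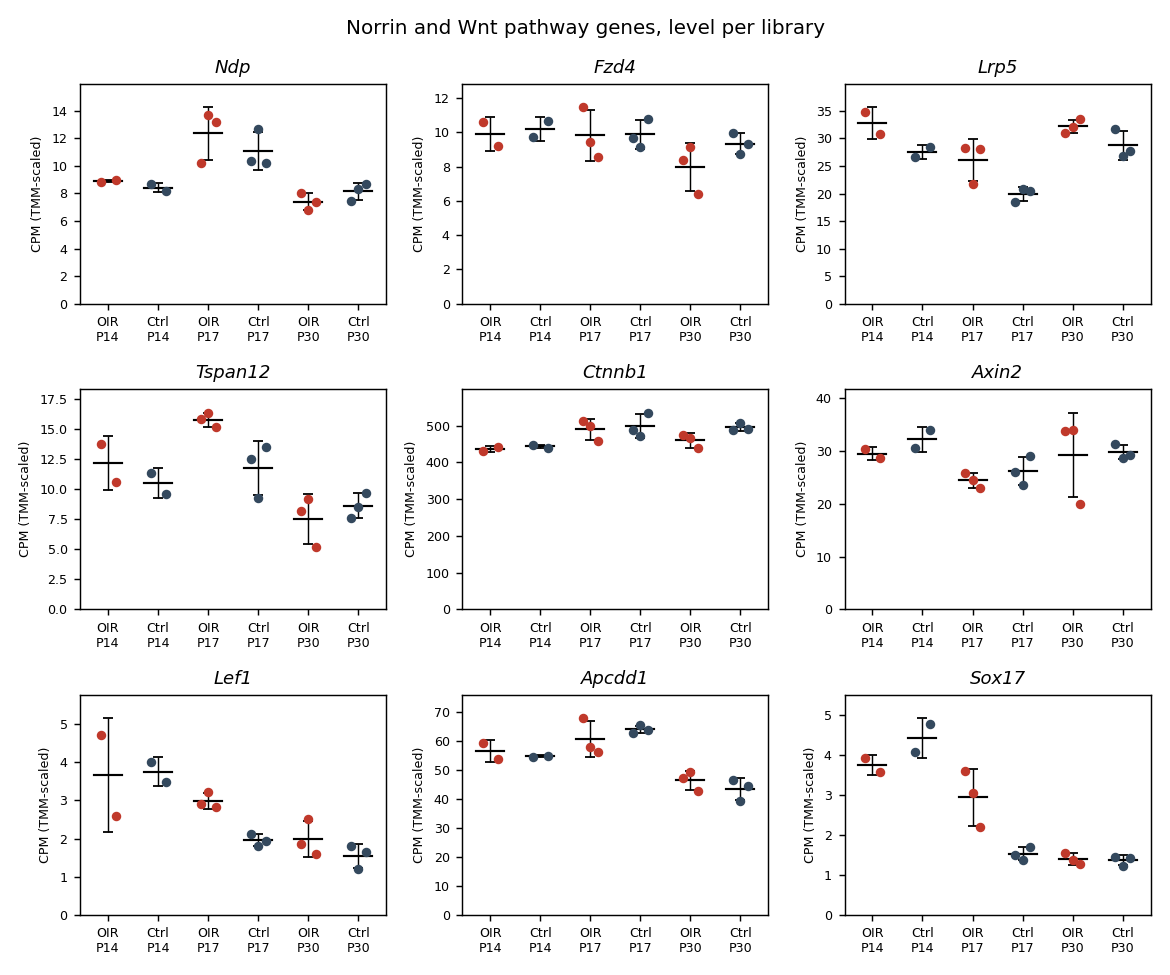
Level of each of the 9 genes in every library, in CPM scaled by TMM, with OIR in red left of control in blue at each age. Points are libraries, the horizontal line is the group mean and the bar its SD (n = 2 at P14, 3 at P17 and P30). At P17 the OIR points of Sox17, Lef1, Lrp5 and Tspan12 all lie above the control points.

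At P17, when vessel regrowth in this model is usually near its height, Sox17 and Lrp5 were higher in OIR retina and none of the 9 genes was lower. Sox17 was 1.93 times and Lrp5 1.31 times its control level. By edgeR's quasi-likelihood test with Benjamini-Hochberg adjustment, 2 of 9 members were called higher and 0 lower, against 14.6% of all 19905 tested genes called in either direction, 7.81% called higher and 6.76% lower. DESeq2 and limma-voom also called Sox17 and Lrp5 higher. The median log2 fold change of the 9 members was 0.16, against 0.00 over all tested genes. The OIR and control libraries did not overlap for 4 of the 9 members, against 32.5% of all tested genes, and the same 4 members, all higher, had an unadjusted p under 0.05, against 26.9%.

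Sox17, which endothelial cells need for arterial identity and vessel growth, stood at 3.60, 3.05 and 2.19 CPM in OIR libraries at P17, against 1.50, 1.37 and 1.70 CPM in controls. Every OIR library was above every control library, and the OIR libraries also spread more widely, at 2.95 ± 0.713 CPM in OIR and 1.52 ± 0.162 CPM in controls (SD, n = 3 each). The counts behind these values were 355 reads in OIR and 155 reads in controls. The log2 fold change was 0.95 (SE 0.200, 95% interval 0.53 to 1.37), with an adjusted p of 0.00357 by edgeR's quasi-likelihood test with Benjamini-Hochberg adjustment. The call did not hold with a covariate for Y-linked reads (0.87, adjusted p = 0.0672 by edgeR), nor without the 2 lens-rich OIR libraries (0.54, adjusted p = 0.276 by edgeR), a fit that leaves 1 OIR library at P17, assumed to vary like the other groups. It held in the other 15 of 17 alternatives.

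Lrp5, the co-receptor that carries both norrin and Wnt signals, stood at 28.3, 21.7 and 28.1 CPM in OIR libraries at P17, against 18.5, 20.8 and 20.5 CPM in controls. All OIR libraries were above the controls, the lowest of them by less than 1 CPM. The log2 fold change was 0.39 (SE 0.108, 95% interval 0.16 to 0.61), with an adjusted p of 0.0226 by edgeR's quasi-likelihood test with Benjamini-Hochberg adjustment. The call was lost with the lens covariate (adjusted p = 0.0578 by edgeR) and the Y-linked covariate (0.224), and without control replicate 1 (0.0948), OIR replicate 1 (0.0984) or OIR replicate 3 (0.106), while the log2 fold change ran from 0.32 to 0.51 over the 17 alternatives.

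Lef1 and Tspan12 stood apart in the same way without passing the test. Lef1, a DNA-binding partner of beta-catenin, stood at 2.92, 3.21 and 2.82 CPM in OIR libraries, against 2.12, 1.80 and 1.94 CPM in controls, from 366 reads in OIR and 201 in controls. The groups did not overlap, and the log2 fold change was 0.61 (95% interval 0.12 to 1.09; adjusted p = 0.0881 by edgeR's quasi-likelihood test with Benjamini-Hochberg adjustment). Tspan12, which strengthens the norrin signal at Fzd4, stood at 15.8, 16.4 and 15.2 CPM in OIR libraries, against 12.6, 9.25 and 13.5 CPM in controls. Again no values overlapped, with control replicate 2 well below its group, and the log2 fold change was 0.42 (95% interval 0.05 to 0.80; adjusted p = 0.129 by edgeR). Lef1 passed the test in a fit of the P17 libraries alone (adjusted p = 0.0442 by edgeR), and Tspan12 did so with no count filter (adjusted p = 0.0381 by edgeR).

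The remaining 5 members overlapped between OIR and control retina at P17. The ligand Ndp stood at 10.2, 13.7 and 13.1 CPM in OIR libraries and at 10.4, 12.7 and 10.2 CPM in controls, a log2 fold change of 0.16 (95% interval -0.12 to 0.44). Ndp is X-linked, and the OIR and control libraries at P17 differ in Xist as given above. Fzd4, the norrin receptor, averaged 9.82 ± 1.50 CPM in OIR and 9.88 ± 0.836 CPM in controls (log2 fold change -0.01, 95% interval -0.31 to 0.29). The feedback inhibitors, which damp the pathway when it is active, were also close to control: Axin2 averaged 24.5 ± 1.44 CPM in OIR and 26.2 ± 2.68 CPM in controls (-0.10, interval -0.41 to 0.21), and Apcdd1 60.7 ± 6.31 CPM in OIR and 64.1 ± 1.32 CPM in controls (-0.08, interval -0.27 to 0.11). Ctnnb1 averaged 491 ± 28.6 CPM in OIR and 499 ± 33.2 CPM in controls (-0.02, interval -0.20 to 0.15). Each of these intervals includes 0, which does not show a lack of change. For Ndp the interval reaches above the 0.39 called for Lrp5.

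**Figure D2:**
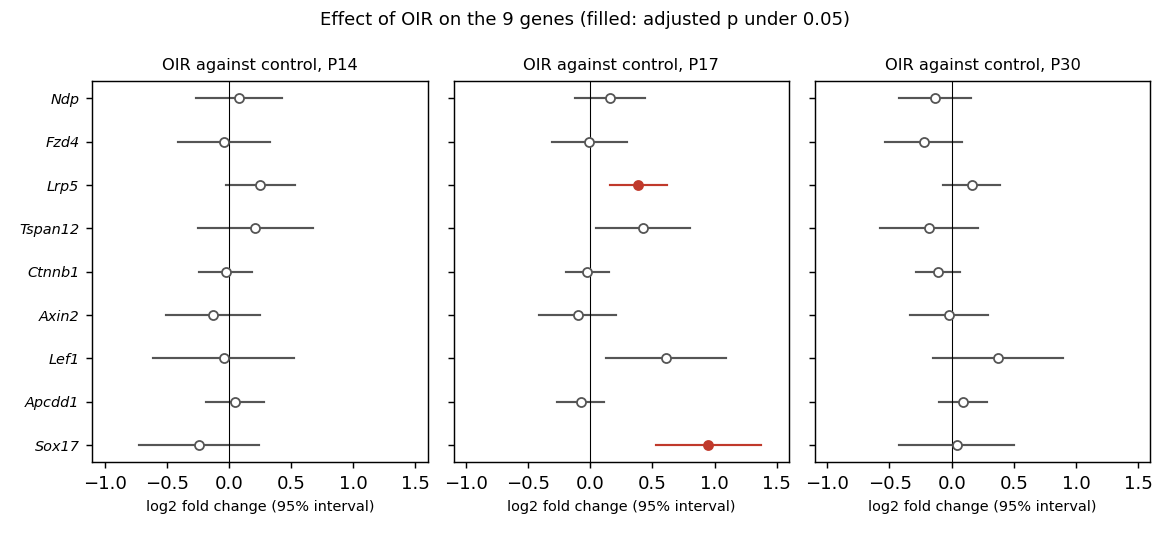
Log2 fold change of OIR against control for each of the 9 genes at P14, P17 and P30, with its 95% interval. Filled red points passed an adjusted p of 0.05 by edgeR, which were Sox17 and Lrp5 at P17, and every interval at P14 and P30 includes 0.

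At P14, early in the phase of oxygen shortage, none of the 9 members passed the test. edgeR called 0 of 9 (0.819% of all tested genes were called), DESeq2 and limma-voom also called 0, and 0 of 9 had an unadjusted p under 0.05, against 9.21% of all genes. The groups did not overlap for 4 members, against 43.1% of all tested genes. Lrp5 was at 34.8 and 30.8 CPM in OIR libraries, against 26.6 and 28.4 CPM in controls (log2 fold change 0.25, 95% interval -0.02 to 0.53; adjusted p = 0.611 by edgeR). Sox17 was at 3.92 and 3.57 CPM in OIR libraries, against 4.07 and 4.77 CPM in controls (-0.24, interval -0.72 to 0.24; adjusted p = 0.861 by edgeR). Lrp5 lay above its controls and Sox17 below, as did Axin2 (30.4 and 28.7 CPM in OIR, 30.5 and 33.9 CPM in controls). Lef1 was at 4.72 and 2.60 CPM in OIR libraries, a wide gap between replicates, and at 4.02 and 3.49 CPM in controls. For Ndp (8.83 and 8.97 CPM in OIR, 8.66 and 8.18 CPM in controls) the groups were likewise apart, by less than 1 CPM. The log2 fold changes of the other members lay between -0.13 for Axin2 and 0.21 for Tspan12. Lens genes, at lower shares in both OIR libraries as given above, gave 0 calls of 18 by edgeR, 11 by DESeq2 and 0 by limma-voom at P14, and 10 of them had an unadjusted p under 0.05. Their part in the members' values was not tested. With the lens covariate edgeR called 16 genes higher and 3 lower at P14 over all tested genes, against 144 and 19 without it.

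At P30, when vessels have largely recovered in this model, again none of the members passed the test. edgeR, DESeq2 and limma-voom each called 0 of 9 (8.60% of all tested genes were called by edgeR), and 0 had an unadjusted p under 0.05, against 26.7% of all genes. Sox17 was at 1.55, 1.36 and 1.27 CPM in OIR libraries and at 1.45, 1.22 and 1.42 CPM in controls, from 116 reads in OIR and 123 in controls. The libraries of both groups were mixed, with a log2 fold change of 0.04 (95% interval -0.42 to 0.50). Lrp5 was at 31.0, 32.0 and 33.5 CPM in OIR libraries and at 31.8, 26.8 and 27.7 CPM in controls, and Lef1 at 1.86, 2.52 and 1.59 CPM in OIR libraries and 1.81, 1.19 and 1.64 CPM in controls; both overlapped. Only Ctnnb1 did not overlap, at 476, 466 and 438 CPM in OIR libraries and 489, 509 and 491 CPM in controls (log2 fold change -0.11), 1 of 9 members against 29.8% of all tested genes. OIR replicate 3 had the lowest value of its group for Fzd4 (6.40 CPM), Tspan12 (5.22 CPM), Axin2 (20.0 CPM), Apcdd1 (42.9 CPM), Ctnnb1, Lef1 and Sox17. It also had the fewest reads of that group, the lowest TMM factor of all libraries (0.811) and the highest rod marker sum (123808 CPM). The part of these in the members' values was not tested.

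The log2 fold change of Sox17 in OIR was below 0 at P14 and above 0 at P17, but edgeR did not call the difference. At P17 minus P14 the effect differed by 1.19 on the log2 scale (SE 0.304, 95% interval 0.55 to 1.83; unadjusted p = 0.00104, adjusted p = 0.225 by edgeR). For this difference edgeR called 0 of the 9 members, with 1 at an unadjusted p under 0.05 (8.53% of all genes), and 0.00% of all genes, while DESeq2 called Sox17 (adjusted p = 0.0492) and limma-voom called 0. At P30 minus P17 the effect on Sox17 differed by -0.91 (SE 0.297; adjusted p = 0.0613 by edgeR) and that on Tspan12 by -0.61 (SE 0.259; adjusted p = 0.146 by edgeR). Here edgeR, DESeq2 and limma-voom called 0 of 9, with 2 at an unadjusted p under 0.05 (26.0% of all genes), and edgeR called 9.29% of all genes. Without OIR replicate 3 at P17 the Sox17 difference was -1.09 (adjusted p = 0.0289 by edgeR).

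With age in control retina, Sox17, Lef1 and Lrp5 fell and Ndp was higher at P17 than at P14. Of the 9 members 1 was called higher and 3 lower by edgeR, against 40.2% of all tested genes called in either direction, 18.3% higher and 21.9% lower, and the groups did not overlap for 7 members, against 62.5%. Sox17 stood at 1.50, 1.37 and 1.70 CPM at P17, against 4.07 and 4.77 CPM at P14, so that P17 controls had 0.344 times the P14 level (log2 fold change -1.54, SE 0.215; adjusted p = 3.21e-05 by edgeR). Lef1 stood at 2.12, 1.80 and 1.94 CPM at P17, against 4.02 and 3.49 CPM at P14 (-0.94, SE 0.251; adjusted p = 0.00630 by edgeR). Neither gene's P17 values overlapped those at P14. Lrp5 stood at 18.5, 20.8 and 20.5 CPM at P17, against 26.6 and 28.4 CPM at P14 (-0.47, SE 0.120; adjusted p = 0.00507 by edgeR). Ndp stood at 10.4, 12.7 and 10.2 CPM at P17, against 8.66 and 8.18 CPM at P14 (0.39, SE 0.151; adjusted p = 0.0460 by edgeR). The Ndp call held in 7 of 15 alternatives and was lost, among others, without control replicate 1 (0.116) or 2 (0.209) at P14 or control replicate 2 at P17 (0.174), these being adjusted p by edgeR. The Lef1 call was lost without control replicate 1 at P14 (adjusted p = 0.0592 by edgeR) and the Lrp5 call without control replicate 2 at P14 (0.0552), whereas Sox17 was called in 15 of 15. Markers of other cells moved with age as well. At P17 against P14 in controls, 1 of 15 endothelial marker genes was called higher and 6 lower by edgeR, with a summed level of 358 to 406 CPM at P17, against 513 to 548 CPM at P14. Of 10 pericyte genes 6 were called lower and 0 higher, and of 12 Müller glia genes 8 higher and 2 lower. The controls also differed in sex pattern and pigment epithelium. At P14 replicate 2 had Xist at 913 CPM and a pigment epithelium sum of 1320 CPM, against 0.157 and 494 CPM in replicate 1. At P17 all controls had Xist at 0.104 CPM or less, and the pigment epithelium sum was 852 to 952 CPM. Ndp is X-linked. The part of these markers and of sex in the members' values was not tested.

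At P30 against P17 in controls the co-receptor Lrp5 rose while the ligand Ndp and the inhibitor Apcdd1 fell. Lrp5 stood at 31.8, 26.8 and 27.7 CPM at P30, against 18.5, 20.8 and 20.5 CPM at P17 (log2 fold change 0.53, SE 0.109; adjusted p = 0.00151 by edgeR). Ndp stood at 7.43, 8.30 and 8.69 CPM at P30, against 10.4, 12.7 and 10.2 CPM at P17 (-0.44, SE 0.135; adjusted p = 0.0203 by edgeR). For both genes the 2 ages were fully apart, with Lrp5 higher and Ndp lower at P30. Apcdd1, a membrane inhibitor of Wnt signalling, stood at 46.7, 39.4 and 44.6 CPM at P30, against 62.9, 65.5 and 63.9 CPM at P17 (-0.56, SE 0.0918; adjusted p = 0.000258 by edgeR). These were 1 higher and 2 lower calls of 9, against 28.3% of all tested genes called, 14.9% higher and 13.4% lower, and 3 members without overlap, against 44.7%. Sox17 showed no called difference (-0.16; adjusted p = 0.634 by edgeR), and Tspan12 (-0.45; adjusted p = 0.0764 by edgeR) was called in 4 of the alternatives but not in the fit used here. With scaling by library totals, which shifts the median of all genes by -0.23, Lrp5 had a log2 fold change of 0.30 (adjusted p = 0.0514 by edgeR), and the Ndp call was lost with the lens covariate (0.134) and without control replicate 2 at P17 (0.0982) or control replicate 1 at P30 (0.0886). Between these ages in controls, 1 of 15 endothelial marker genes was called higher and 12 lower (median log2 fold change -0.96), with a summed level of 232 to 267 CPM at P30, against 358 to 406 CPM at P17. Of 16 endothelial barrier genes 1 was called higher and 10 lower, of 12 Müller glia genes 2 higher and 5 lower, and of 18 lens genes 6 higher and 0 lower. Lens genes took 5.22% to 8.29% of counts in controls at P30, against at most 0.560% at P17. The part of these markers in the members' values was not tested.

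Marker genes of endothelial cells, the cells that read the norrin signal in retinal vessels, were also higher in OIR retina at P17. Of 15 endothelial marker genes, 9 were called higher at P17 and 0 lower by edgeR (median log2 fold change 0.92, against 0.00 over all tested genes), with 2 at P30. At P14 edgeR called 0 of the 15, DESeq2 3 and limma-voom 0, and 7 had an unadjusted p under 0.05. Cdh5, the adhesion protein of endothelial junctions, averaged 37.9 ± 5.57 CPM in OIR and 13.4 ± 0.957 CPM in controls at P17, and Pecam1 43.0 ± 10.7 CPM in OIR and 19.7 ± 2.60 CPM in controls. Summed over the 15 genes, the level was 645, 540 and 547 CPM in OIR libraries and 358, 406 and 380 CPM in controls, a ratio of 1.51 with no overlap (exact permutation test, two-sided, p = 0.1, the smallest that 3 against 3 libraries allow). In whole-retina RNA, fewer cells of a type and less RNA per cell cannot be told apart, and the same holds for more. Markers of other cells moved as well at P17. Of 10 pericyte genes 8 were called higher (their sum was 353 to 484 CPM in OIR and 163 to 186 CPM in controls), and of 10 microglia or macrophage genes 8 were called higher (160 to 204 CPM in OIR and 72.2 to 91.8 CPM in controls). Of 12 Müller glia genes 5 were called lower, with a sum of 5039 to 5692 CPM in OIR and 5443 to 6384 CPM in controls. Of 7 astrocyte genes 4 and of 18 lens genes 1 were called higher, of 12 pigment epithelium genes 1 was called lower, and 0 of 10 rod and 0 of 6 red blood cell genes were called by edgeR (0 and 3 at an unadjusted p under 0.05, 0 and 2 by DESeq2, 0 and 0 by limma-voom). The part of these cells in the members' values was not tested.

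Set against this endothelial sum, 5 of 9 members lay lower in every OIR library at P17, against 64.4% of all tested genes, and the other 4 overlapped between the groups. The sum itself was higher in OIR, by 0.60 on the log2 scale, so a gene with the same CPM in both groups lies lower by that amount in this ratio. Sox17 equalled 0.559%, 0.564% and 0.400% of the endothelial sum in OIR libraries at P17 and 0.419%, 0.339% and 0.446% in controls, so the groups overlapped (log2 difference 0.33; exact permutation test, two-sided, p = 0.3). Lef1 equalled 0.452%, 0.594% and 0.516% in OIR libraries and 0.592%, 0.445% and 0.510% in controls (0.02; exact p = 0.7). Fzd4 equalled 1.78%, 1.75% and 1.56% in OIR libraries and 2.71%, 2.26% and 2.84% in controls, with all OIR libraries below (-0.61; exact p = 0.1). Ndp, Axin2, Apcdd1 and Ctnnb1 likewise lay below the controls in every OIR library, with log2 differences of -0.44, -0.69, -0.68 and -0.62 (exact p = 0.1 each, 0.15 after Benjamini-Hochberg adjustment over 18 such tests). Lrp5 (-0.22) and Tspan12 (-0.15) overlapped. With Pecam1 alone in place of the sum, the Sox17 difference was -0.18 and that of Lef1 -0.49, so the sign for these depended on which endothelial genes were used.

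**Figure D3:**
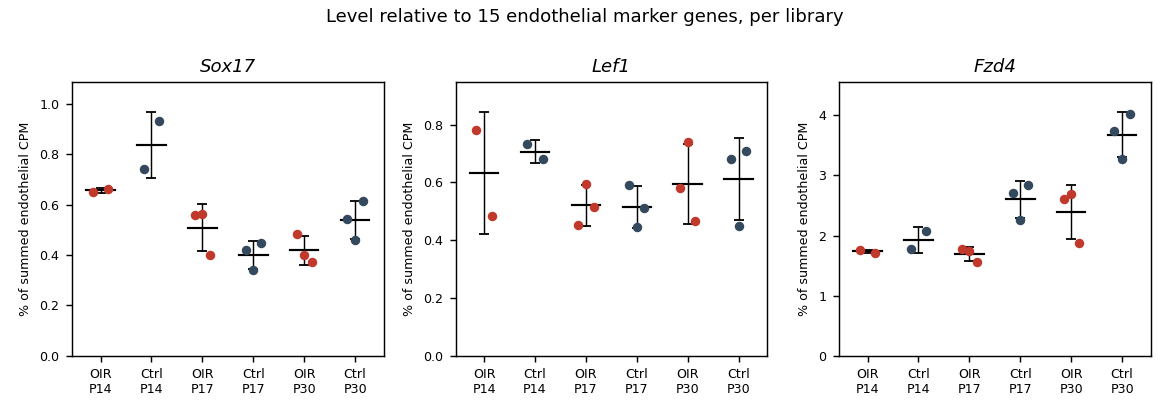
Level of Sox17, Lef1 and Fzd4 as a percentage of the summed CPM of 15 endothelial marker genes, per library, with OIR in red left of control in blue at each age. Lines and bars are the mean and SD. At P17 Sox17 and Lef1 overlapped between the groups and Fzd4 lay lower in all 3 OIR libraries.

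At P30 the endothelial sum was 321, 340 and 341 CPM in OIR libraries, against 266, 267 and 232 CPM in controls, a ratio of 1.31 (exact permutation test, two-sided, p = 0.1). Relative to it, 7 of 9 members lay below the controls in every OIR library, against 47.7% of all tested genes, from -0.23 for Lrp5 to -0.64 for Fzd4 on the log2 scale. A gene with the same CPM in both groups lies lower by 0.39 in this ratio, and with Pecam1 alone as denominator the Lrp5 difference was 0.059. Sox17 (-0.36) and Lef1 (-0.03) overlapped between the groups. At P14 the sum was 603 and 538 CPM in OIR libraries and 548 and 513 CPM in controls, a ratio of 1.07. Across the 16 libraries the level of Sox17 correlated with the endothelial sum at r = 0.85 and that of Lef1 at r = 0.84. The other members followed at 0.69 for Apcdd1, 0.65 for Tspan12, 0.46 for Ndp, 0.37 for Fzd4, 0.00 for Lrp5, -0.16 for Axin2 and -0.35 for Ctnnb1. Sox17 and Lef1 also ran opposite to the Müller glia sum, at -0.86 and -0.75, and to the lens sum, at -0.62 and -0.58. These are Pearson correlations of log2 values, given as a description, and the libraries share age groups and scaling.

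Likeness between members and other genes was read in the same way, over 16 libraries and 14415 genes. Lef1 and Sox17 were the most alike pair of members, at r = 0.88, followed by Tspan12 and Apcdd1 at 0.73, and Ndp and Lrp5 ran in opposite directions at -0.66. Among all genes Sox17 was most like Nras (0.94) and Lef1 most like Fmnl3 (0.94). Tspan12 was most like Spcs3 (0.96), Apcdd1 most like Zdhhc15 (0.95), Lrp5 most like Zfp703 (0.92) and Ndp most like Cdc16 (0.95). Fzd4 was most like Mxd1 (0.92) and Ctnnb1 most like Akap10 (0.93). Axin2 was most like Zfp608 (0.93), followed by Dusp15 (0.90) and Znrf3 (0.90). Znrf3 is named for its known role, as a membrane ligase that removes Frizzled receptors and is itself a Wnt target.

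Some other genes of the Wnt pathway and of the endothelial barrier changed at P17. Of 102 further genes in 8 lists, 92 were tested, and 15 were called higher and 11 lower in OIR by edgeR (28.3%, against 14.6% of all tested genes). At P14 2 were higher and 0 lower (2.17%, against 0.819%), and at P30 8 were higher and 0 lower (8.70%, against 8.60%). Without the 16 barrier genes, 8 of 76 were called higher and 10 lower at P17 (23.7%), 1 was called at P14 (1.32%) and 5 at P30 (6.58%). The lists were chosen with earlier results of these data known, so these shares cannot show an excess of changes in the pathway. The list for the destruction complex that degrades beta-catenin also held regulators that are not parts of it, among them Dvl1, Dvl2 and Dvl3. It had 0 of 12 genes called by edgeR or limma-voom at P14, P17 and P30. At an unadjusted p under 0.05 these were 0, 2 and 5 genes, and DESeq2 called 0, 0 and 2. Among Wnt ligands 3 of 14 were called higher and 2 lower at P17. Wnt5b averaged 14.7 ± 2.06 CPM in OIR and 8.04 ± 1.76 CPM in controls (log2 fold change 0.87; adjusted p = 0.00213 by edgeR), and Wnt2b 11.3 ± 0.639 CPM in OIR and 16.4 ± 1.99 CPM in controls (-0.54). Without the 2 lens-rich libraries, which leaves 1 OIR library at P17, the log2 fold change was 0.63 for Wnt5b (adjusted p = 0.140 by edgeR) and -0.59 for Wnt2b (0.0547), and with the Y-linked covariate it was 0.56 for Wnt5b (0.120), so these calls were lost. For Wnt7a, called higher with a log2 fold change of 3.07, the 2 lens-rich OIR libraries had 7.95 and 5.26 CPM and the third 0.316 CPM, against 0.129, 0.687 and 0.831 CPM in controls. Without those 2 libraries the log2 fold change of Wnt7a was -0.73, and with the lens covariate it was -0.07.

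Target genes and inhibitors were mixed at P17. Of 10 target genes 3 were called higher and 2 lower: Ccnd1, the cell-cycle gene cyclin D1, averaged 67.6 ± 1.92 CPM in OIR and 39.5 ± 2.27 CPM in controls (log2 fold change 0.78; adjusted p = 0.000196 by edgeR), and Myc, another growth gene, 3.54 ± 0.848 CPM in OIR and 1.55 ± 0.135 CPM in controls (1.18). Lgr5, a receptor for R-spondins, averaged 14.8 ± 1.36 CPM in OIR and 20.7 ± 2.00 CPM in controls (-0.48). Of 16 inhibitors 1 was called higher, Kremen1, which binds Dickkopf and removes Lrp5 and Lrp6 from the surface, at 93.2 ± 17.8 CPM in OIR and 59.1 ± 4.33 CPM in controls (0.66; adjusted p = 0.000649 by edgeR), and 2 lower, among them Sfrp2 (-0.67). The P17 calls of Ccnd1 and Kremen1 held in all 17 alternatives run, against 16 for Myc, 15 for Lgr5 and 8 for Sfrp2. The calls of Myc, Lgr5 and Sfrp2 were lost with the Y-linked covariate, those of Lgr5 and Sfrp2 also elsewhere. Their log2 fold changes with the Y-linked covariate were 0.96, -0.46 and -0.60. With this covariate edgeR called 510 genes higher and 314 lower at P17 over all tested genes, against 1555 and 1345 without it. Y-linked reads followed the groups at P17, so calls held or lost in this fit do not separate sex from OIR. Ccnd1 was also called at P14 (0.76, in 11 of 15 alternatives) and Kremen1 at P30 (0.46, in 11 of 16). Other Frizzled receptors were mixed, with Fzd6 called higher (0.53) and Fzd5 (-0.43) and Fzd9 (-0.61) lower at P17. The calls held in 9 of 17 alternatives for Fzd6, 12 for Fzd5 and 10 for Fzd9. All 3 were lost, among other fits, with the Y-linked covariate, where the values were 0.40, -0.34 and -0.61. Without the 2 lens-rich libraries Fzd6 was at 0.20, Fzd5 at -0.57 and Fzd9 at -0.94. At P30 4 of 14 receptor genes were called higher, among them Fzd2 (0.95; adjusted p = 0.00589 by edgeR), Fzd7 (0.61) and Fzd5 (0.40), called in 15, 12 and 7 of 16 alternatives.

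Of 16 genes of the endothelial barrier, which norrin signalling helps to maintain, 7 were called higher and 1 lower at P17, 1 higher at P14 and 3 higher at P30. Plvap, a protein of leaky, fenestrated vessels that norrin signalling normally keeps low, averaged 9.86 ± 1.98 CPM in OIR and 3.00 ± 0.550 CPM in controls at P17 (log2 fold change 1.72; adjusted p = 0.000156 by edgeR) and 14.9 ± 6.05 CPM in OIR and 5.42 ± 1.58 CPM in controls at P14 (1.46; adjusted p = 0.0176 by edgeR), the P14 call holding in 10 of 15 alternatives. Cldn5, the main claudin of tight junctions, was called at P17 (0.61) with overlapping libraries, a call lost in 7 of 17 alternatives, with 0.25 without the 2 lens-rich libraries and 0.33 with the lens covariate, and at P30 averaged 59.1 ± 7.81 CPM in OIR and 23.2 ± 1.30 CPM in controls (1.35; adjusted p = 0.000662 by edgeR). The relatives of Sox17 in the same gene family, Sox18 (1.03) and Sox7 (1.29), were also higher at P17, and Sox18 again at P30 (1.08). Ebf1 was the lower one at P17 (-0.61). Without the 2 lens-rich libraries 3 of these 16 genes were called higher and 1 lower at P17, and with the Y-linked covariate 4 and 1; Plvap, Sox18 and Ebf1 were called at P17 in all 17 alternatives.

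**Figure D4:**
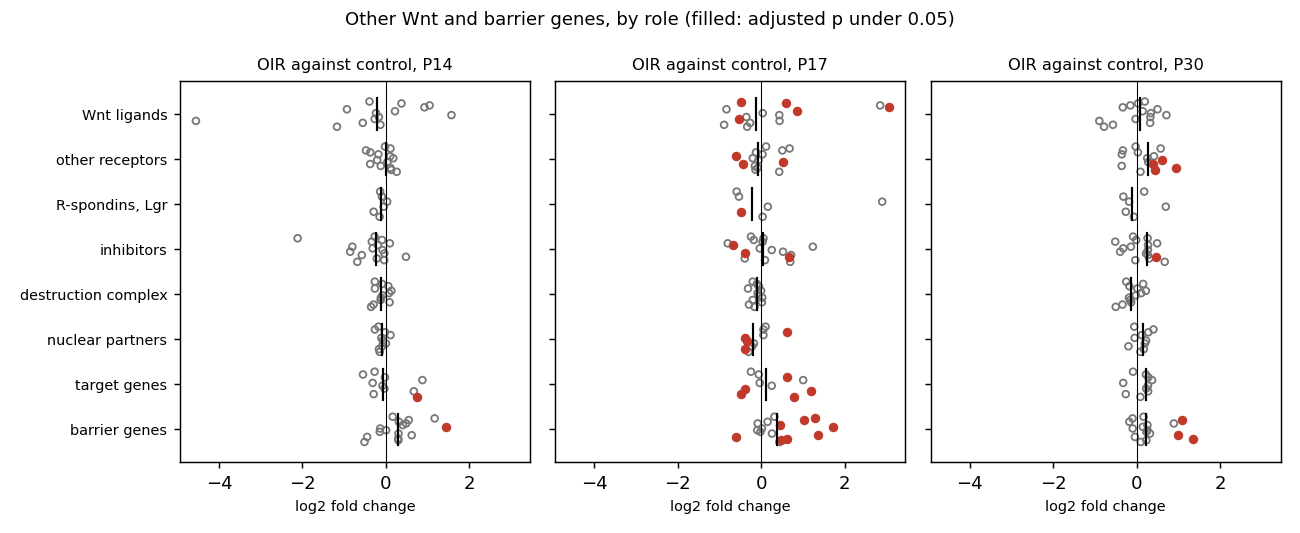
Log2 fold change of OIR against control at P14, P17 and P30 for the tested genes of 8 lists of Wnt and barrier genes other than the 9 members. Each point is a gene of 1 list, filled red where the adjusted p by edgeR was under 0.05, and the bar is the list's median. A gene in 2 lists, such as Tcf7, Lgr5 or Nkd1, is drawn in both. With each gene counted once, 15 were called higher and 11 lower at P17, 7 of the higher ones among the 16 barrier genes. The destruction complex list had no filled point at any age.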

How the data were processed

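The authors' files hold unnormalized counts, one whole number of reads per gene symbol and library. Per the labels' protocols, mRNA was selected from retinal RNA and sequenced on an Ion Proton. The submitters' processing notes name Torrent Suite 5.4.0, STAR, Bowtie2, HTSeq, Picard and mm10. No source used here gives the annotation release or the strand setting of the counting.

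The count tables were fitted with edgeR 4.0.16 (R 4.3.3) in 1 robust quasi-likelihood model over 16 libraries, with 10 residual degrees of freedom, after filterByExpr (minimum count 10, minimum total 15) and TMM scaling. Its 7 comparisons set OIR against age-matched controls, those effects against each other between consecutive ages, and controls of consecutive ages against each other. A gene was called at a Benjamini-Hochberg adjusted p under 0.05. Counting noise falls with depth, and 1 read equals 0.0225 to 0.0454 CPM. Ratios to the endothelial sum were compared by exact permutation tests. Steps were tested on simulated data.

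The members and lists were chosen with earlier results of these data known. Named genes are the members, up to 4 of each pathway list and 3 of each marker list with the smallest p per comparison, the 3 genes most like each member, and Pecam1, Cdh5, Cldn5, Plvap, Xist and Ddx3y; the text names a part of these. Wnt7a was singled out after its values were seen. Alternatives were RLE scaling, library totals, no filter, a filter of 50 counts in 2 libraries, DESeq2 1.42.0, limma-voom (limma 3.58.1), a replicate block, fits of the compared groups only, covariates for lens and Y-linked reads, and leaving out each replicate. Leaving out both lens-rich OIR libraries and a crossed block were added after seeing the data. No pair of libraries agreed within sampling noise.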

Additional observations from a re-analysis of the deposited data

Results flagged for a closer look

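For Sox17, every OIR library lay below the controls at P14 and every OIR library lay above them at P17. At P14 the log2 fold change was -0.24 (95% interval -0.72 to 0.24; adjusted p = 0.861 by edgeR), and 43.1% of all tested genes did not overlap between the groups at that age. At P17 that share was 32.5%, and the share on opposite sides at the 2 ages was not counted. The P17 call was lost with the Y-linked covariate (0.87, adjusted p = 0.0672 by edgeR). Without the 2 lens-rich OIR libraries the P17 log2 fold change was 0.54. The OIR effect at P17 minus that at P14 was 1.19 on the log2 scale, with an adjusted p of 0.225 by edgeR's quasi-likelihood test and 0.0492 by DESeq2. At P14 the counts behind Sox17 were 244 reads in OIR and 345 in controls, over 2 libraries each.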

How the results depend on the processing

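Of 766 values of single members under an alternative, 708 kept their direction and side of the threshold, 21 lost and 10 gained a call and 27 changed sign, none of these 27 called. Most of these values belong to members not called in the fit used here, which could not lose a call. Differences between effects were included only at an unadjusted p under 0.05. All 21 losses fell on called members, whose calls held in between 7 of 15 alternatives (Ndp in controls at P17 against P14) and 16 of 16 (Apcdd1 in controls at P30 against P17). Lrp5 in OIR at P17 held in 12 of 17. The cause of these changes in sign or call was not tested. In OIR at P17, the members called higher (2) became 1 with the lens covariate (Sox17), 0 with the Y-linked covariate, 1 without the 2 lens-rich libraries (Lrp5), 3 with no count filter (with Tspan12) and with only the groups compared (with Lef1), and 1 to 2 without single replicates. In controls at P17 against P14, the members called higher (1) became 0 with scaling by library totals, no count filter, or either covariate, 2 with DESeq2 and with only the groups compared, and 0 to 1 without single replicates. In controls at P30 against P17, 0 were called higher with library totals, 1 lower with the lens covariate, 3 lower with library totals, no count filter or only the groups compared (with Tspan12), and 1 to 2 lower without single replicates. For the OIR effect at P17 minus P14, DESeq2 called 1 higher, and for that at P30 minus P17, 0 to 1 were lower without single replicates.

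Same-numbered replicates did not deviate together (correlations of -0.208 to 0.0493 over 8 pairs, and 2 of 16 libraries most like their own number). With 2 libraries per group, the 2 pairs at P14 necessarily share 1 value (-0.129). These values give no sign that the numbers pair the samples, but they cannot show that the samples were unpaired. With the replicate block 0 members were called higher in controls at P17 against P14, where Ndp had 0.38, and the other calls of members held. A crossed block at P14, added after seeing the data, called 0 members higher and 0 lower.

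With library totals the sign turned for Sox17 in OIR at P30 (-0.0042) and Axin2 in controls at P30 against P17 (-0.050). With no count filter Fzd4 in OIR at P17 was 0.012. With the lens covariate OIR at P14 gave 0.045 for Fzd4, 0.034 for Lef1 and 0.047 for Ctnnb1, and with the Y-linked covariate 0.049 for Fzd4. With Pecam1 alone as denominator the endothelial ratios were -0.49 for Lef1 and -0.18 for Sox17 at P17, and 0.059 for Lrp5 and 0.25 for Lef1 at P30. Without single replicates, OIR at P14 ran from -0.15 to 0.048 for Fzd4, -0.53 to 0.32 for Lef1 and -0.024 to 0.11 for Apcdd1. OIR at P17 then ran from -0.13 to 0.082 for Fzd4 and -0.062 to 0.032 for Ctnnb1, and OIR at P30 from -0.35 to 0.0087 for Tspan12, -0.14 to 0.18 for Axin2 and -0.045 to 0.092 for Sox17. Controls at P17 against P14 ran from -0.11 to 0.023 for Fzd4, and at P30 against P17 from -0.046 to 0.048 for Ctnnb1. The Lef1 ratio ran from -0.086 to 0.12 at P17 and -0.25 to 0.13 at P30. Depth limits the rarest members most, with 116 to 355 reads per group for Sox17.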
